A study of Mus musculus with 2 samples.

Results

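The homing receptors described here are 10 genes of the 43346 listed, chosen by symbol. They are Ccr7, Cxcr4, Cxcr5, Ccr6, Ccr9 and Cxcr3 for chemokines, Gpr183 for oxysterols, and S1pr1, S1pr3 and S1pr4 for sphingosine 1-phosphate. Transcript abundance was measured by total RNA sequencing in CH12.LX, an immortalized line from a mouse B cell lymphoma, derived from a female mouse of strain B10.H-2aH-4bp/Wts. The labels name 2 libraries, biological replicates 1 and 2 of 1 group, and give no treatment, genotype change or age. Each replicate has its own biosample record of the same line, and nothing in the labels says how the cultures were kept apart, so the spread between them may be partly technical. There was no contrast between conditions. Levels were therefore described, and the libraries were compared with each other.

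Chemokine, oxysterol and sphingosine 1-phosphate receptors are G protein-coupled receptors that place lymphocytes in tissue. Chemokine receptors draw B cells along gradients into lymphoid organs and into their compartments, the oxysterol receptor Gpr183 moves activated B cells towards the outer follicle, and sphingosine 1-phosphate receptors guide cells back out into blood and lymph or hold them in the marginal zone. Most of them signal through Gi proteins to the Rac GTPases that remodel actin, and receptor kinases, arrestins and RGS proteins end the signal.

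The tables held 49278383 estimated counts for replicate 1 and 55950529 for replicate 2. Levels are given as TPM, the abundance unit that scales each library to one fixed sum, which corrects for transcript length and so can be set between genes. Protein-coding genes held 24.4% of TPM in replicate 1 and 24.3% in replicate 2, so that 1 TPM is a stricter limit here than it would be if only protein-coding genes were counted. Detection was set at 1 TPM in both libraries, which 22.1% of all genes and 41.4% of the 21474 protein-coding genes reached. All 8 B cell markers were detected, at a summed 238.4 TPM in replicate 1 and 237.4 TPM in replicate 2. Lists of 6 or 8 markers each for T cells, NK cells, myeloid cells, dendritic cells, endothelium, stroma and erythroid cells summed to between 0.09 and 5.28 TPM in replicate 1 and between 0.10 and 5.67 TPM in replicate 2. The T cell list was the highest of these, with Cd3g, Cd3d and Cd28 detected and Cd3e at 0 counts in both libraries.

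The sequences shown next belong to Cxcr4, one of the 2 most abundant receptors, and to the 2 least abundant, Ccr9 and Cxcr3. Cxcr4, the receptor for CXCL12, had an abundant RNA with a pair of annotated transcripts that differ at the coding start. Cxcr4-201 is the full-length form, and Cxcr4-202 uses an end of exon 1 that lies 6 coding bases further upstream. Both are given from the first coding base to base 15 of exon 2 (GENCODE M21 transcripts on GRCm38, minus strand of chromosome 1), with the 6 bases found only in Cxcr4-201 in capitals.
Cxcr4-201: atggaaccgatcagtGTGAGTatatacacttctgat
Cxcr4-202: atggaaccgatcagtatatacacttctgat
The 6 bases keep the reading frame. The 3′ end of Cxcr4-202 was not found in the annotation, and its model of 902 bases is shorter than the 1805 bases of Cxcr4-201.

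Promoter windows from RefSeq (GRCm38.p6) were cut to the 250 bases before the RefSeq start, and 7 of the 10 receptors had a window. The RefSeq starts differ in part from the GENCODE M21 gene bounds given below. By those bounds the Ccr9 window and 1 of the 2 windows of Ccr6 lie inside the gene. The Cxcr3 and Gpr183 windows overlap their genes in part. Ccr7, Cxcr5 and S1pr1 were not compared, so the CG contents below cover 2 of the 4 receptors that reached 1 TPM. Those of the abundant Cxcr4 and of the nearly absent Ccr9 and Cxcr3 are printed, with each CG dinucleotide in capitals, to show how they differ in CG content.
Cxcr4, chr1:128592300-128592549, minus strand: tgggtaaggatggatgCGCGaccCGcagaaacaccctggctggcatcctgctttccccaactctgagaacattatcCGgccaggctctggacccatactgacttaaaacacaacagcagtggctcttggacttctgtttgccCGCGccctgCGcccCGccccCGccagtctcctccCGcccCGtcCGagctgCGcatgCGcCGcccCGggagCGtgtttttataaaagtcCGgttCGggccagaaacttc
Ccr9, chr9:123766961-123767210, plus strand: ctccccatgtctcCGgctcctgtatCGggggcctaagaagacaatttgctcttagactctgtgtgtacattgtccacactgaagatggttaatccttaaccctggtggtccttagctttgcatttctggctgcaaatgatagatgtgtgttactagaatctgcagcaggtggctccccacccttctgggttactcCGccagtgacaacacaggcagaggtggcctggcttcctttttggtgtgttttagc
Cxcr3, chrX:101734148-101734397, minus strand: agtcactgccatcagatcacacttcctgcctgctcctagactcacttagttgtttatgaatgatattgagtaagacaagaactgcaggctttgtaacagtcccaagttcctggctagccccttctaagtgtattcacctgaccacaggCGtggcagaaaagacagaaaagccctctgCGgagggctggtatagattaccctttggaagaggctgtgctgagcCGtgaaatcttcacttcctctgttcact
The Cxcr4 window held 19 CG dinucleotides and 61.2% G or C, against a median of 6 CG dinucleotides and 52.4% G or C over 32851 windows of the same length. The Ccr9 and Cxcr3 windows held 3 CG dinucleotides each. S1pr3 had 9 CG dinucleotides, Gpr183 had 2 and S1pr4 had 0, while the 2 windows of Ccr6 held 1 and 7. Among these 7 receptors the windows with the most CG dinucleotides were those of Cxcr4 and S1pr3, which were also the members with a window that reached 1 TPM. This is a description of 7 genes and carries no test. The letters TATAAA, searched on both strands, matched 2 times in the Cxcr4 window, once on each strand, between bases 32 and 25 before the start, and the matches share 4 bases. They matched in no other window of a member and in 12.4% of all windows. ACGTG occurred in the window of Gpr183 and in 1 of the 2 of Ccr6, and in 16.6% of all windows.

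Of the 10 receptors, 4 were detected, namely Ccr7, Cxcr4, Cxcr5 and S1pr3. The levels ran from those of Ccr7 and Cxcr4 down to a single count for Cxcr3. The median of the members' mean levels was 0.62 TPM, and the median over protein-coding genes was 0.195 TPM.

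Ccr7 guides B and T cells to the T cell zone along CCL19 and CCL21, and it was the most abundant member. Its gene lies at chr11:99144196-99155077 on the minus strand. It had 8214 counts and 40.87 TPM in replicate 1, and 12617 counts and 57.64 TPM in replicate 2, a mean of 49.25 ± 11.86 TPM (SD, n = 2). By mean level it ranked 655 of 21474 protein-coding genes.

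Cxcr4 followed closely. The receptor retains B cells in bone marrow and in the dark zone of germinal centres, and its gene lies at chr1:128588199-128592293 on the minus strand. It had 6038 counts and 39.02 TPM in replicate 1, and 7066 counts and 43.23 TPM in replicate 2, a mean of 41.12 ± 2.98 TPM (SD, n = 2), which ranked 800. The ranges of Ccr7 and Cxcr4 over the libraries overlapped, so their order was not resolved, although Ccr7 was the higher in each library, by 1.05 times in replicate 1 and 1.33 times in replicate 2.

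Cxcr5, the receptor for the follicular chemokine CXCL13, lies at chr9:44511787-44561877 on the minus strand. It had 1479 counts and 5.42 TPM in replicate 1, and 1828 counts and 6.13 TPM in replicate 2, a mean of 5.78 ± 0.502 TPM (SD, n = 2). The follicle receptor was thus well below both receptors above. Ccr7 exceeded it 7.54 times in replicate 1 and 9.40 times in replicate 2, and Cxcr4 exceeded it 7.20 times in replicate 1 and 7.05 times in replicate 2.

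The 3 remaining chemokine receptors of the group were not detected. Ccr6, the receptor for CCL20, lies at chr17:8236043-8257141 on the plus strand. It had 45 counts and 0.32 TPM in replicate 1, and 47 counts and 0.27 TPM in replicate 2. Ccr9, which binds CCL25 and directs cells to the small intestine and thymus, lies at chr9:123678439-123784330 on the plus strand. It had 3 counts in replicate 1 and 2 counts in replicate 2, and was listed at 0.01 TPM (replicate 1) and 0.00 TPM (replicate 2). Cxcr3, the receptor for the interferon-induced chemokines CXCL9, CXCL10 and CXCL11, lies at chrX:101731535-101734269 on the minus strand. It had 0 counts in replicate 1, where 3 counts would read as 0.0173 TPM, and 1 count and 0.01 TPM in replicate 2. At these counts Ccr9 and Cxcr3 were at or below the limit of 3 counts in both libraries, and no fold is given for either. These limits cover counting error only.

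Gpr183, also named EBI2, lies at chr14:121952551-121965195 on the minus strand, inside the gene Ubac2 on the opposite strand, with which it shares no exon base. It had 274 counts and 0.89 TPM in replicate 1, and 268 counts and 0.80 TPM in replicate 2, a mean of 0.845 ± 0.0636 TPM (SD, n = 2). The level was just under the detection limit in both libraries. Ubac2 was at 7.39 TPM (replicate 1) and 7.77 TPM (replicate 2). Whether the counting used strand is not given in the sources used here.

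Among the sphingosine 1-phosphate receptors the highest member was S1pr3, which mouse marginal zone B cells use, at chr13:51408639-51422797 on the plus strand. It had 676 counts and 1.41 TPM in replicate 1, and 1063 counts and 2.04 TPM in replicate 2, a mean of 1.73 ± 0.446 TPM (SD, n = 2). S1pr1, the receptor through which lymphocytes leave lymphoid organs, lies at chr3:115710433-115715072 on the minus strand. It had 111 counts and 0.35 TPM in replicate 1, and 152 counts and 0.44 TPM in replicate 2. S1pr3 therefore exceeded the egress receptor 4.03 times in replicate 1 and 4.64 times in replicate 2. S1pr4, found mainly on blood cells, lies at chr10:81497747-81500132 on the minus strand and had 16 counts and 0.06 TPM in replicate 1, and 19 counts and 0.07 TPM in replicate 2.

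**Figure D1:**
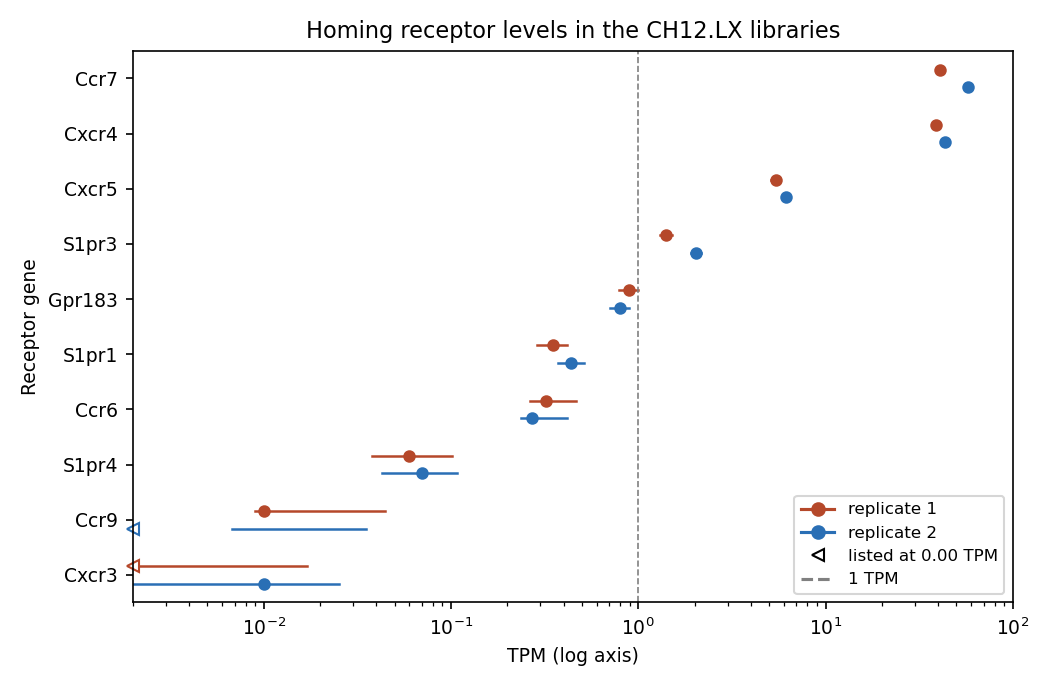
TPM of the 10 homing receptor genes on a log axis in replicate 1 (upper, red) and replicate 2 (lower, blue), with the deposited credibility bounds of TPM as lines and a triangle at the left edge where a gene was listed at 0.00 TPM. Ccr7, Cxcr4, Cxcr5 and S1pr3 lie right of the dashed line at 1 TPM in both libraries, and Ccr9 and Cxcr3 lie at 0.01 TPM or 0.00 TPM.

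In the full order by mean level, Ccr7, Cxcr4, Cxcr5, S1pr3, Gpr183, S1pr1, Ccr6, S1pr4, and then Ccr9 and Cxcr3 with equal means, 7 of 9 neighbouring pairs had ranges that did not overlap. The overlapping pairs were Ccr7 with Cxcr4 and Ccr9 with Cxcr3. The widest step between neighbours at countable levels was from Cxcr4 to Cxcr5, where the means differed 7.12 times. The narrowest among the pairs that did not overlap was S1pr1 over Ccr6, at 1.34 times. The lowest S1pr1 value was 0.35 TPM and the highest Ccr6 value 0.32 TPM. The credibility bounds of S1pr1 and Ccr6 overlapped within each library, so by the bounds their order was not resolved. In replicate 1 they ran from 0.288 to 0.418 TPM for S1pr1 and from 0.263 to 0.465 TPM for Ccr6. In replicate 2 they ran from 0.373 to 0.511 TPM for S1pr1 and from 0.237 to 0.417 TPM for Ccr6. With 2 libraries, a two-sided exact permutation test of 2 unpaired values against 2 cannot give a p under 0.33. Genes read in the same libraries are paired, which leaves fewer permutations, so no such test was run. All 10 receptors had whole-number counts and a posterior SD of 0 in the deposited tables, as had 82.5% of the genes tested between libraries. Small exon overlaps with genes on the opposite strand remained, of 110 bases for Cxcr5 with Bcl9l, which was at 0.12 TPM (replicate 1) and 0.24 TPM (replicate 2), and of 45 bases for S1pr3 with Gm32834. The largest overlap was that of Ccr9 with the opposite-strand gene AC165425.1, over 1932 bases, and that gene was listed at 0.00 TPM in both libraries. Ccr9 also shared 269 exon bases with the same-strand Gm17200, listed at 0.01 TPM (replicate 1) and 0.00 TPM (replicate 2), and 22 with Slc6a20a, listed at 0.00 TPM in both.

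Set within their families, 2 receptors held most of the chemokine receptor RNA. The 18 conventional chemokine receptors summed to 101.1 TPM (replicate 1) and 115.8 TPM (replicate 2), and Ccr7 and Cxcr4 together made up 79.0% of this in replicate 1 and 87.1% in replicate 2. Ccr7 alone held 40.4% in replicate 1 and 49.8% in replicate 2. Cxcr4 held 38.6% and Cxcr5 5.36% in replicate 1, and in replicate 2 Cxcr4 held 37.3% and Cxcr5 5.30%. The only other conventional receptor detected, of 12, was Ccr10, the receptor for the mucosal chemokine CCL28, at 14.15 TPM (replicate 1) and 7.08 TPM (replicate 2). Ccr10 was thus more abundant than Cxcr5 in both libraries. Ccr7 exceeded Ccr10 2.89 times in replicate 1 and 8.14 times in replicate 2. Ccr1 was at 0.40 TPM (replicate 1) and 0.38 TPM (replicate 2), and Ccr2 and Ccr8 were at 0 counts in both libraries. Of the 5 genes listed as atypical receptors, which bind their ligands without G protein signalling, 2 were detected. Ackr3, which takes up the Cxcr4 ligand CXCL12, was at 2.43 TPM (replicate 1) and 3.13 TPM (replicate 2), and Cxcr4 exceeded it 16.1 times in replicate 1 and 13.8 times in replicate 2. Ccrl2 was at 1.05 TPM (replicate 1) and 2.52 TPM (replicate 2), and Ackr2, a scavenger of inflammatory chemokines, at 0.63 TPM (replicate 1) and 0.71 TPM (replicate 2). Ackr4 stood at 0.06 TPM (replicate 1) and 0.04 TPM (replicate 2), and Ackr1 had 0 counts in both libraries.

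The 5 sphingosine 1-phosphate receptors summed to only 2.62 TPM in replicate 1 and 3.60 TPM in replicate 2. S1pr3 held 53.8% in replicate 1 and 56.7% in replicate 2 of this sum, and S1pr1 held 13.4% in replicate 1 and 12.2% in replicate 2. S1pr2, which confines germinal centre B cells through Gα13, came second at 0.80 TPM (replicate 1) and 1.05 TPM (replicate 2). S1pr5 had 1 count in each library. Of the 12 matched genes in the list of other sphingosine 1-phosphate and lysophospholipid receptors, 4 were detected, and the 3 highest were Gpr132, Gpr174 and P2ry10. Gpr132, a receptor linked to lysophospholipids and oxidized fatty acids, was at 7.17 TPM (replicate 1) and 10.31 TPM (replicate 2), above Cxcr5 in both libraries. Gpr174, a receptor for lysophosphatidylserine, was at 3.40 TPM (replicate 1) and 2.14 TPM (replicate 2), and P2ry10, another such receptor, at 2.18 TPM (replicate 1) and 1.98 TPM (replicate 2). Lpar3 had 0 counts in both libraries.

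The libraries were compared by a two-sided exact binomial test of the counts, scaled by TMM, with Benjamini-Hochberg adjustment over 15438 genes. A gene was called where the adjusted p was under 0.05 and the ratio at least 2. The test knows of counting error alone, and it sets one library against the other rather than one condition against another. None of the 8 receptors with at least 10 counts was called, where 4.77% of all genes tested were. By the adjusted p alone, 4 receptors were lower in replicate 1, and 0 were higher. Over all genes tested, 25.2% were lower in replicate 1 and 25.1% higher by the same rule. The deposited credibility bounds of TPM did not overlap between the libraries for the same 4 genes, Ccr7, Cxcr4, Cxcr5 and S1pr3, and for 34.7% of all genes tested. These 4 are the members with the most counts. The median log2 ratio of the 8 receptors, replicate 1 over replicate 2, was -0.18, and that of all genes tested was -0.01.

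Ccr7 and S1pr3 differed most between the libraries among these 4. The log2 ratio of Ccr7, replicate 1 over replicate 2, was -0.52 (95% counting interval -0.56 to -0.48, adjusted p = 8.64e-144 by the exact binomial test), a ratio of 0.697. S1pr3 had a log2 ratio of -0.55 (-0.70 to -0.41, adjusted p = 2.53e-14 by the same exact test), a ratio of 0.681. Both were lower in replicate 1, and both were within the central range of all genes, whose 5th and 95th percentiles, among those whose mean reached 1 TPM, were -0.59 and 0.46. Their absolute log2 ratios were larger than those of 89.8% of such genes for Ccr7 and 91.2% for S1pr3. Cxcr4 had a log2 ratio of -0.13 (-0.18 to -0.08, adjusted p = 1.70e-06, exact test) and Cxcr5 one of -0.21 (-0.31 to -0.11, adjusted p = 0.000140, exact test), larger than those of 34.8% of such genes for Cxcr4 and 53.5% for Cxcr5. When the libraries were scaled by their totals alone, Cxcr4 no longer passed, with an adjusted p of 0.144 in the exact test, and the median over all genes tested was 0.08. In the same comparison 33.3% of genes were then higher and 18.6% lower in replicate 1 by the adjusted p alone.

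The 4 receptors with fewer counts did not pass the test, and their intervals were wide. Gpr183 had a log2 ratio of 0.13 (-0.12 to 0.38), S1pr1 one of -0.35 (-0.72 to 0.01), and Ccr6 one of 0.04 (-0.59 to 0.66). For S1pr4, with 16 counts in replicate 1 and 19 in replicate 2, the interval ran from -1.21 to 0.89. It thus took in a level 2-fold lower in replicate 1. In bulk RNA, fewer cells with a transcript and less transcript per cell cannot be told apart. The summed B cell markers were at 238.4 TPM (replicate 1) and 237.4 TPM (replicate 2). Single B cell markers went in opposite directions within this sum. Ms4a1 was at 32.96 TPM (replicate 1) and 25.24 TPM (replicate 2), and Ebf1 at 6.18 TPM (replicate 1) and 9.44 TPM (replicate 2). The largest part of the sum was Cd79b, at 121.0 TPM (replicate 1) and 125.47 TPM (replicate 2). The 6 dendritic cell markers summed to 1.48 TPM (replicate 1) and 2.99 TPM (replicate 2). Of these, Zbtb46 was at 1.01 TPM (replicate 1) and 2.31 TPM (replicate 2), and Xcr1 at 0.22 TPM (replicate 1) and 0.45 TPM (replicate 2). Itgax went the other way, at 0.05 TPM (replicate 1) and 0.02 TPM (replicate 2), and Clec9a had 0 counts in both libraries. The 6 erythroid markers summed to 1.23 TPM (replicate 1) and 2.47 TPM (replicate 2). Hba-a1 was at 0.46 TPM (replicate 1) and 1.19 TPM (replicate 2), while Hbb-bs went the other way, at 0.09 TPM (replicate 1) and 0.00 TPM (replicate 2). The part of these levels in the receptor ratios was not tested.

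**Figure D2:**
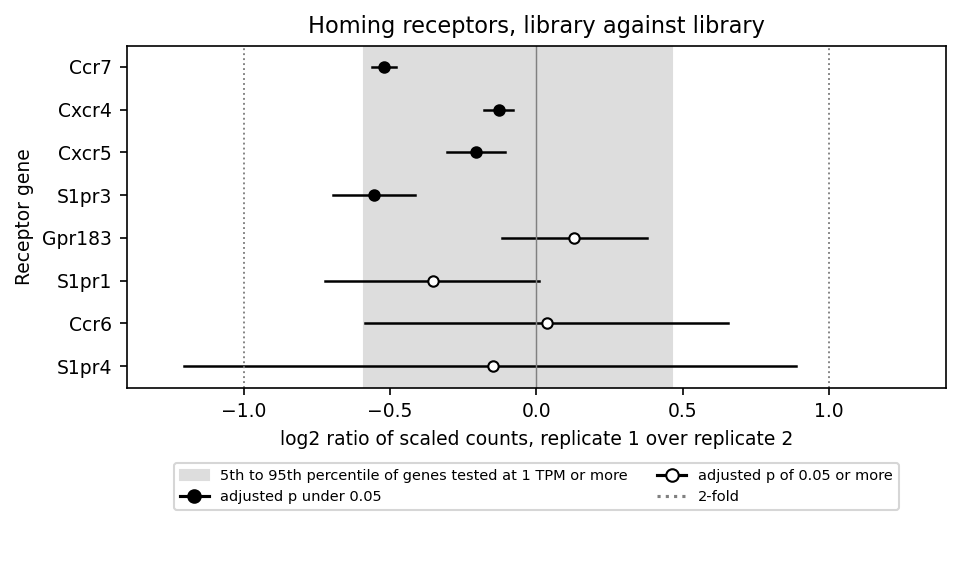
Log2 ratio of scaled counts, replicate 1 over replicate 2, for the 8 receptors with at least 10 counts, with 95% counting intervals as lines, filled points where the adjusted p was under 0.05, and dotted lines at 2-fold. All 8 points lie inside the grey band, which spans the 5th to 95th percentile (-0.59 to 0.46) of the genes tested whose mean reached 1 TPM, and none of the points reaches 2-fold.

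At the transcript level, 6 members had 1 annotated transcript each, and Cxcr4, Cxcr5, Ccr6 and Ccr9 had several. The full-length Cxcr4-201 held 72.84% of Cxcr4 TPM in replicate 1 and 68.33% in replicate 2, a mean of 70.6% ± 3.19 (SD, n = 2). Cxcr4-202, which lacks the 6 coding bases printed in capitals above, held 27.16% in replicate 1 and 31.67% in replicate 2. Its credibility bounds ran from 9.15 to 12.1 TPM in replicate 1 and from 11.9 to 15.2 TPM in replicate 2, so the libraries overlapped. The share depended on the unit. By counts, which are not corrected for the short Cxcr4-202 model, that form took 14.4% of the gene's counts in replicate 1 and 17.2% in replicate 2, against 85.6% in replicate 1 and 82.8% in replicate 2 for Cxcr4-201. When all Cxcr4 counts were divided by the effective length of Cxcr4-201, a step chosen after the values were seen, Cxcr4 read 33.2 TPM in replicate 1 and 35.7 TPM in replicate 2, below Ccr7 in both.

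Cxcr5-201 held 91.90% of Cxcr5 TPM in replicate 1 and 90.22% in replicate 2, and Cxcr5-202 the remaining 8.10% in replicate 1 and 9.78% in replicate 2. Cxcr5 was thus read mostly from one form in both libraries. Ccr6 had 6 annotated transcripts that shared 45 counts in replicate 1 and 47 in replicate 2. The leading form was Ccr6-202 in replicate 1, at 49.66%, and Ccr6-201 in replicate 2, at 47.36%. The same 2 forms stood at 23.08% for Ccr6-202 in replicate 2 and 5.30% for Ccr6-201 in replicate 1. Ccr6-204 held 24.78% in replicate 1 and 0.00% in replicate 2, and Ccr6-205 20.27% in replicate 1 and 29.56% in replicate 2. The credibility bounds of every Ccr6 transcript overlapped between the libraries, and no leading form could be named. Ccr9 transcripts shared 3 counts in replicate 1 and 2 counts in replicate 2, with Ccr9-201 at 100% in replicate 1 and Ccr9-205 at 95.98% in replicate 2, which at these counts names no form.

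**Figure D3:**
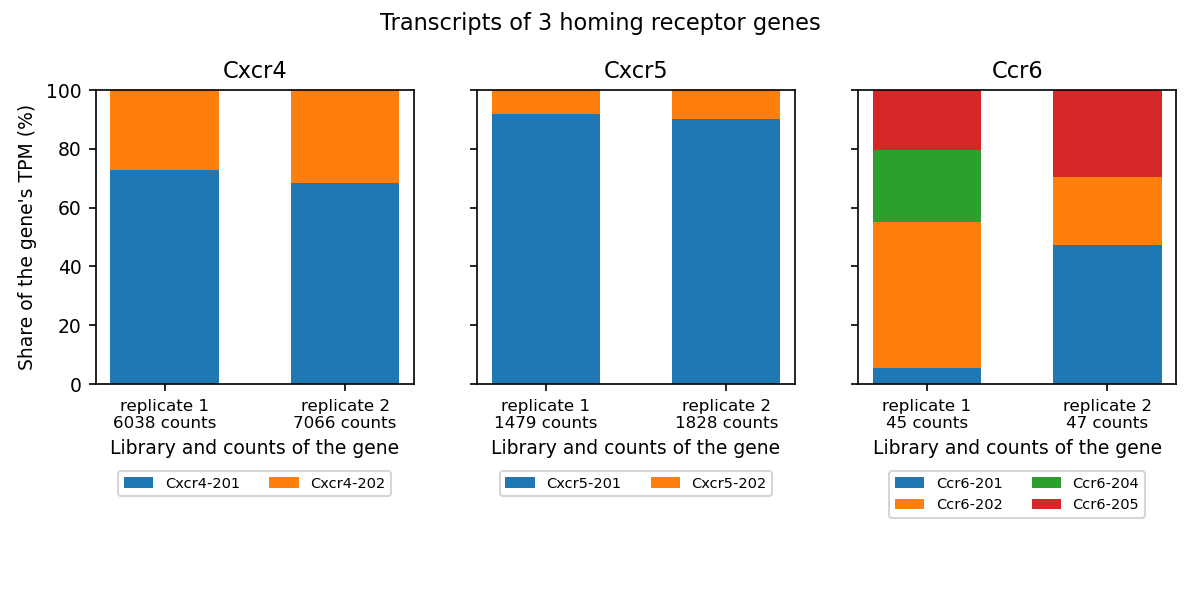
Share of each gene's TPM held by its transcripts, in percent, for Cxcr4, Cxcr5 and Ccr6, with replicate 1 left of replicate 2 and the gene's counts under each bar. Cxcr4-201 and Cxcr5-201 lead in both libraries, while the leading Ccr6 transcript differs between libraries that hold 45 and 47 counts of the gene.

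The genes that act with these receptors were described from lists. Of the 10 matched genes for ligands of the chemokine receptors, 0 were detected. Ccl25, the Ccr9 ligand, had the highest mean, at 0.84 TPM (replicate 1) and 0.77 TPM (replicate 2). Ccl20, the Ccr6 ligand, had 7 counts and 0.10 TPM in replicate 1, and 70 counts and 0.82 TPM in replicate 2, with a log2 ratio of -3.22 (-4.59 to -2.11, adjusted p = 1.93e-12 by the exact binomial test), so it was called lower in replicate 1. Cxcl10 was at 0.13 TPM (replicate 1) and 0.06 TPM (replicate 2). Cxcl12 had 1 count in replicate 1 and 0 in replicate 2, Ccl19 had 0 in replicate 1 and 1 in replicate 2, and Cxcl13, Ccl21a, Ccl21b, Cxcl9 and Cxcl11 had 0 counts in both.

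Of 13 genes of sphingosine 1-phosphate metabolism, 7 were detected. The 13 genes summed to 42.49 TPM in replicate 1 and 45.29 TPM in replicate 2, above the sum of the 5 receptors in both libraries. Plpp1, a lipid phosphate phosphatase, was at 11.70 TPM (replicate 1) and 11.62 TPM (replicate 2). Sgpl1, the lyase that breaks the lipid down, was at 9.80 TPM (replicate 1) and 11.56 TPM (replicate 2), and Asah1, the acid ceramidase, at 5.11 TPM (replicate 1) and 5.56 TPM (replicate 2). The exporter genes Mfsd2b and Spns2 and the ceramidase gene Acer2 were at 0.05 TPM or less in each library. In this list 3 genes were called lower in replicate 1 and 0 higher, where 572 of all 15438 genes tested were called lower and 165 higher. They were Sphk1, a kinase that makes the lipid, at 0.20 TPM (replicate 1) and 0.51 TPM (replicate 2), Sgpp2 at 0.07 TPM (replicate 1) and 0.14 TPM (replicate 2), and Plpp3 at 0.04 TPM (replicate 1) and 0.08 TPM (replicate 2). These calls rest on few counts. Sphk1 had 29 counts in replicate 1 and 91 in replicate 2, Sgpp2 had 28 and 64, and Plpp3 had 12 and 29. The credibility bounds of Plpp3 overlapped between the libraries. Plpp3 was also not called when the libraries were scaled by their totals alone. For the Gpr183 ligand, the oxysterol-forming enzymes Ch25h, Cyp7b1 and Cyp27a1 had 0 counts in both libraries. Hsd3b7, which breaks the ligand down, was at 1.02 TPM (replicate 1) and 1.21 TPM (replicate 2), but had more counts in replicate 1, 316, than the 265 in replicate 2, so that its TPM and its counts differed in direction.

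Most genes of the intracellular part of the pathway were detected. Of 9 G protein alpha subunit genes, 8 were detected. None of the 8 tested was called between the libraries, where 4.77% of all genes tested were. By the adjusted p alone, 1 was higher and 4 were lower in replicate 1, where 25.1% of all genes tested were higher and 25.2% lower. The highest was Gnas, for the stimulatory alpha subunit, at 94.91 TPM (replicate 1) and 108.59 TPM (replicate 2). Gnai3, for a Gi subunit, was at 14.43 TPM (replicate 1) and 12.92 TPM (replicate 2). Gnai2, for the main Gi alpha subunit of leukocytes, was at 40.07 TPM (replicate 1) and 39.48 TPM (replicate 2), a level like that of Cxcr4. Cxcr4 stood at 0.974 times Gnai2 in replicate 1 and 1.09 times in replicate 2. Ccr7 stood at 1.02 times Gnai2 in replicate 1 and 1.46 times in replicate 2. The lowest were Gnaq at 1.37 TPM (replicate 1) and 1.95 TPM (replicate 2), and Gnai1 with 1 count in each library. Of 9 RGS genes, whose proteins switch G proteins off, 4 were detected. Rgs13, known from germinal centre B cells, stood at 40.38 TPM (replicate 1) and 35.48 TPM (replicate 2), Rgs19 at 18.17 TPM (replicate 1) and 16.37 TPM (replicate 2), and Rgs10 at 2.81 TPM (replicate 1) and 1.76 TPM (replicate 2). Rgs16 was the lowest at 0.06 TPM (replicate 1) and 0.05 TPM (replicate 2). Rgs18 was called higher in replicate 1, at 0.19 TPM (replicate 1) and 0.09 TPM (replicate 2), where 4.77% of all genes tested were called. It had only 39 counts in replicate 1 and 20 in replicate 2, with a log2 ratio of 1.06 (0.25 to 1.92).

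Receptor kinases and arrestins were detected for 4 of 6 matched genes. Grk2, which phosphorylates active receptors, was at 48.58 TPM (replicate 1) and 43.49 TPM (replicate 2), and Arrb2, an arrestin, at 10.98 TPM (replicate 1) and 14.00 TPM (replicate 2). The ratio of Grk2 to Ccr7 was 1.19 in replicate 1 and 0.755 in replicate 2, so which of the 2 was higher differed between the libraries. Grk6 was at 15.92 TPM (replicate 1) and 13.37 TPM (replicate 2). The lowest of the list were Arrb1 at 0.92 TPM (replicate 1) and 1.00 TPM (replicate 2), and Grk3 with 0 counts in both libraries. All 19 migration effectors were detected and none was called, where 4.77% of all genes tested were. By the adjusted p alone, 10 of them were higher and 6 lower in replicate 1. Over all genes tested, 25.1% were higher and 25.2% lower by that rule. The highest were Coro1a, an actin-binding protein, at 69.71 TPM (replicate 1) and 75.78 TPM (replicate 2), the GTPase Cdc42 at 58.15 TPM (replicate 1) and 49.95 TPM (replicate 2), and the GTPase Rac2 at 37.12 TPM (replicate 1) and 47.80 TPM (replicate 2). The lowest were Rhoh at 2.44 TPM (replicate 1) and 2.02 TPM (replicate 2), and Pik3r5 at 1.99 TPM (replicate 1) and 1.36 TPM (replicate 2).

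Of 12 surface and transcriptional regulators of the receptors, 8 were detected. Nfkb1, an NF-κB subunit gene, was at 58.38 TPM (replicate 1) and 61.48 TPM (replicate 2). Cd69, whose protein binds S1PR1 and takes it off the surface, was at 25.04 TPM (replicate 1) and 29.36 TPM (replicate 2). Foxp1 was at 18.53 TPM (replicate 1) and 25.91 TPM (replicate 2). Klf2, a transcription factor that drives S1pr1, had 1 count in replicate 1 and 2 counts in replicate 2, and was listed at 0.01 TPM in both. Bcl6, a repressor that germinal centre B cells need, stood at 0.04 TPM (replicate 1) and 0.06 TPM (replicate 2). Whether the Cd69 and Klf2 levels bear on that of S1pr1 was not tested. In this list 7 genes passed the adjusted p as lower in replicate 1 and 0 as higher, with a median log2 ratio of -0.36 over the 10 tested, and none reached 2-fold. Over all genes tested, 25.2% passed as lower and 25.1% as higher. Scaled by library totals alone, 6 were lower and 1 higher in replicate 1.

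**Figure D4:**
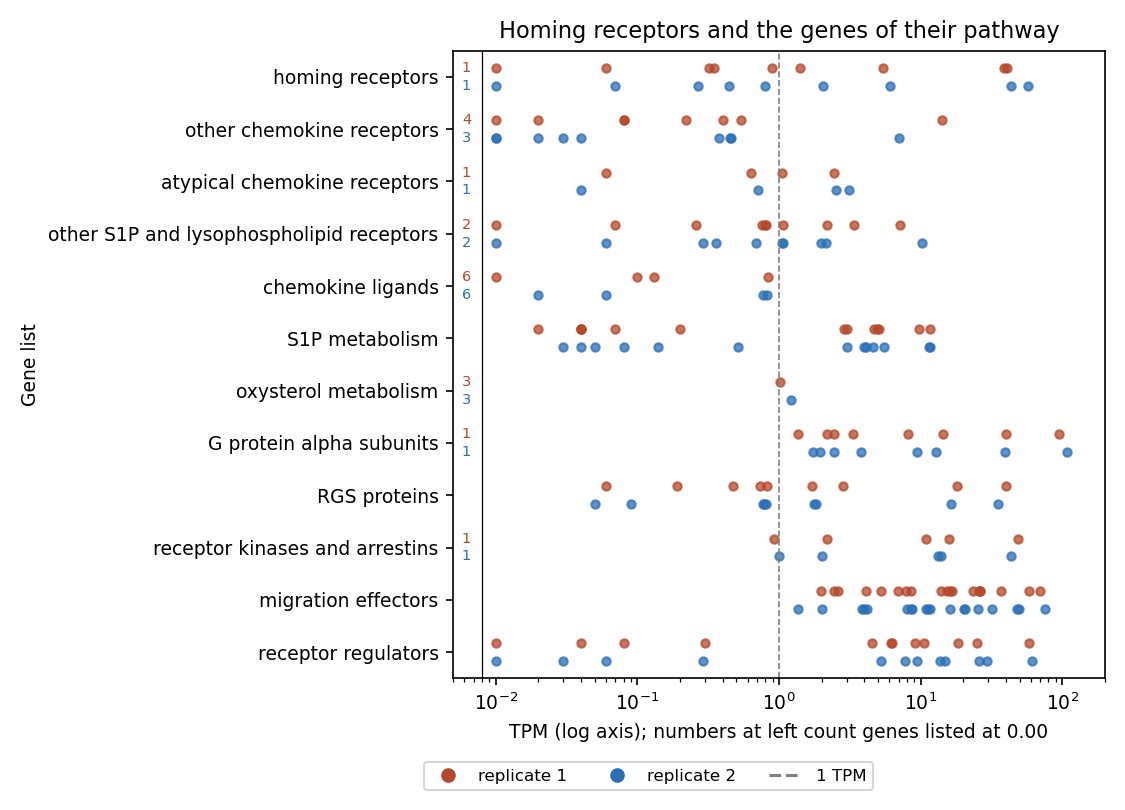
TPM on a log axis of the homing receptors and of the genes in 11 lists of their pathway, with replicate 1 (red) above replicate 2 (blue) in each row, 1 point per gene and the number of genes listed at 0.00 TPM at the left. All 19 migration effectors lie right of the dashed line at 1 TPM in both libraries, against 4 of 10 homing receptors and 0 of 10 chemokine ligands.

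Among the related receptors, 4 genes were called between the libraries, where 4.77% of all genes tested were. The tested genes were 7 other chemokine receptors, 4 atypical receptors and 9 other sphingosine 1-phosphate and lysophospholipid receptors. Cxcr6 had 16 counts in replicate 1 and 4 counts in replicate 2 and was called higher in replicate 1. Xcr1 was called lower, at 0.22 TPM (replicate 1) and 0.45 TPM (replicate 2), as was Ccrl2 with a log2 ratio of -1.28. Gpr34, a receptor for lysophosphatidylserine, was called higher in replicate 1, at 0.81 TPM (replicate 1) and 0.36 TPM (replicate 2). Ccr10 passed the adjusted p with a log2 ratio of 0.97, just short of the 2-fold limit, and was higher in replicate 1 while Ccr7 was lower. When the libraries were scaled by their totals alone, Ccr10 was called, with a log2 ratio of 1.06, and Xcr1 was not, with a log2 ratio of -0.98.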

How the data were processed

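Total RNA sequencing of 2 CH12.LX libraries was used, each with gene tables for releases M2, M3 and M4 of the annotation and with an M4 transcript table, on assembly mm10 per the labels. For the aligner and the quantifier, no name is given in the sources used here. Estimated counts, which the deposited tables name expected counts per the file headers, were rounded for the count test. The deposited TPM values, so named per the file headers, were used as they stand. The deposited FPKM column and the posterior mean TPM column, per the file headers, served in alternatives. The deposited percent values give a transcript's share of its gene's TPM, per the file headers. The deposited lower and upper credibility bounds of TPM, other values per the file headers, were compared between the libraries.

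Rows that name no gene were left out. Symbols and coordinates came from GENCODE M21, matched on the identifier without version for 42462 of 43346 genes. The M4 tables gave the main values. Scaling used TMM factors (edgeR 4.0.16, R 4.3.3) over genes with at least 10 rounded counts in both libraries together. The exact binomial test used scipy 1.17.1 under Python 3.11.15 (pandas 2.3.3, numpy 2.4.6), with Benjamini-Hochberg adjustment. It was tested on simulated counts drawn with counting error alone. That simulation had no further spread between libraries, so it cannot tell how often such spread leads to a call here. Between the libraries, 1 against 1, a model with replicate spread has no residual degrees of freedom. The counts of the libraries differed beyond counting noise, with a chi-square per degree of freedom of 172 and no TMM scaling. This value cannot tell biological from technical spread. The labels name the libraries biological replicates, and each was counted as a sample of its own. With both taken as 1 group, edgeR's common biological coefficient of variation was 0.180. Alternatives were the other annotation releases, posterior mean TPM, FPKM, TPM rescaled to protein-coding genes, other detection limits, DESeq2 1.42.0 size factors, library totals, no count filter, other call rules and leaving out each library. Figures were drawn with matplotlib 3.10.9.

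The members and the 19 gene and marker lists were chosen with earlier results of these data known. Named were all members, of each pathway list up to the 3 highest and 2 lowest genes and every gene called between the libraries, and transcripts with at least 10% of a member. Not every gene this rule takes is reported. Other genes named were chosen after their values were seen. Of the listed genes, P2ry8 and Ccl21c had no match, and Adrbk1 and Adrbk2 are older symbols of Grk2 and Grk3.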

Additional observations from a re-analysis of the deposited data

How the results depend on the processing

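The number of members detected stayed between 3 and 5 in all alternatives run except TPM rescaled to protein-coding genes, under which 7 reached 1 TPM with Gpr183, S1pr1 and Ccr6 added. The rescaling's own construction raises every level. The order of the first 8 members was the same under each alternative run, FPKM and posterior mean TPM included. Ccr9 and Cxcr3, equal in mean TPM, changed places: Ccr9 was the higher in posterior mean TPM (0.025 against 0.01) and without replicate 2, and Cxcr3 the higher without replicate 1. No member was called between the libraries under any scaling, filter or annotation release. By the adjusted p with no fold criterion, 4 members and 7779 genes were called, and by credibility bounds that do not overlap 4 members and 5358 genes, against 737 genes with the fold criterion. Of those 737, 165 were higher and 572 lower in replicate 1, while scaling by library totals gave 217 higher and 453 lower. The direction of each tested member's ratio was the same in all alternatives run. Taken from counts in place of TPM, the share of Cxcr4-201 moved to 84.2%. No paired analysis between conditions was possible because the libraries belong to 1 group with no contrast. With 2 libraries the spread within the group has 1 degree of freedom, and the levels of Ccr6, S1pr4, Ccr9 and Cxcr3 rest on fewer than 50 counts per library.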
